A study of Bos taurus with 20 samples.

Results

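The genes described here are 8 transcripts often used as reference (housekeeping) genes in quantitative PCR, GAPDH, ACTB, B2M, HPRT1, PPIA, TBP, YWHAZ and GUSB, measured in bovine neck muscle after a growth promoter treatment and after storage of the meat. Their probes were found by the gene name that the array files give, or by the gene symbol in the probe's description. This gave 12 of 21475 probes, of which 11 passed the filter on low signal. GAPDH had 3 probes (A_73_100172, A_73_100878 and A_73_105495), PPIA had 2 (A_73_107769 and A_73_115232), YWHAZ had 2 (A_73_115814 and A_73_102388), and each of the other genes had 1.

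The muscle came from 10 cattle at slaughter, 5 treated and 5 control animals. Treated animals received dexamethasone (spelled dexamethazone in the labels), a synthetic glucocorticoid, at 0.4 mg per animal per day by mouth for 31 days, together with 6 intramuscular injections of the oestrogen estradiol (5 mg per animal, weekly). A sample of each animal was hybridised after 14 days of vacuum storage at 4 °C and another at day 0, so the 20 one-colour arrays formed 4 groups of 5: treated day 14, control day 14, treated day 0 and control day 0. Breed, sex and age were not given in the sources used here, and the drugs were given together, so their effects cannot be told apart.

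A reference gene is meant to give the same amount of transcript per unit of RNA in every sample, so that other transcripts can be expressed as a ratio to it. The 8 genes serve unrelated processes. GAPDH is a glycolytic enzyme, ACTB is cytoplasmic beta-actin, B2M is the light chain of MHC class I, and HPRT1 salvages purines. PPIA (cyclophilin A) helps proteins to fold, TBP binds the TATA box of promoters, YWHAZ is a 14-3-3 adaptor protein, and GUSB is a lysosomal glycosidase.

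Signal is the processed signal of the scanner software, a background-subtracted intensity, on the log2 scale. It is given uncentred, or centred by subtracting the 75th percentile of the same array, so that a centred value of 0 equals that percentile. The 75th percentile itself was 377 ± 53.1 in treated and 428 ± 99.0 in control animals at day 14, against 821 ± 99.0 in treated and 806 ± 114 in control animals at day 0 (linear signal, mean ± SD, n = 5 each). Between day 0 and day 14 of the same animal its log2 value fell by 1.03 ± 0.40 (SD, n = 10), and it was lower in 10 of 10 animals. The 7 spike-in control probes read RNA that is added to each sample in a fixed amount. Their signal fell by 0.21 ± 0.24, in 8 of 10 animals (two-sided exact permutation p = 0.0195, adjusted over 2 tests 0.0195). The percentile relative to the spike-in controls fell by 0.82 (exact permutation p = 0.00195, which is the smallest that 10 pairs allow, and 0.00391 after adjustment). Storage day and slide largely coincided. Of 6 slides, 2 held both days, and on slide 5 the percentile was 368 and 533 on the day 14 arrays (DE32 and K10), against 743 on the day 0 array (DE32), while on slide 6 it was 485 and 449 at day 14 (K3 and K8), against 716 and 723 at day 0 (DE27 and K10). Centring therefore reports a transcript relative to an array whose upper quartile was lower after storage, and both scales are given for each gene. All 10 of the listed skeletal muscle markers that have a probe were tested, and their mean centred signal per array ranged from 11.38 to 11.85 in treated and 11.12 to 11.42 in control animals at day 14, against 10.71 to 11.17 in treated and 11.01 to 11.35 in control animals at day 0. The treated groups did not overlap between days. In treated animals 5 of the 10 markers rose after storage and 0 fell (limma), beside 18.2% and 11.6% of all tested probes. In control animals 1 rose and 3 fell, beside 21.8% and 17.3%. In all animals 4 rose, among them TTN (titin, 2.99 ± 0.28), and 2 fell, beside 31.6% and 23.1% of all tested probes. The part of these marker shifts in the values of the reference genes was not tested. In whole muscle, fewer cells of a type and less RNA per cell cannot be told apart, and precision is limited by the 5 animals in each group.

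The first comparison asks whether the treatment moved the reference genes in fresh muscle. At day 0, 0 of 11 probes were called between treated and control animals by limma at an adjusted p under 0.05, and 0 of 11 had an unadjusted p under 0.05. Of all tested probes, 2.45% were called, and 2664 of 15438 had an unadjusted p under 0.05. The median change of the 11 probes was -0.05 on the log2 scale, beside -0.01 over all tested probes, and their lowest adjusted p was 0.377. The change with the widest departure from 0 was that of GUSB, at -0.45 ± 0.24 (SE), on a probe that was well above background on 5 of 20 arrays. TBP had 0.15 ± 0.14, ACTB -0.03 ± 0.18 and B2M -0.01 ± 0.24.

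Among the brighter probes, PPIA (0.26 ± 0.19, limma adjusted p = 0.55) and GAPDH A_73_100172 (-0.26 ± 0.16, adjusted p = 0.45) had the largest day 0 changes. GAPDH A_73_100878 had -0.22 ± 0.18 and A_73_105495 -0.10 ± 0.16, and the dim HPRT1 probe had -0.35 ± 0.59. The uncentred signal of PPIA was 14.03, 14.26, 14.06, 14.25 and 14.24 in treated animals, against 14.22, 13.75, 14.21, 13.66 and 13.54 in control animals. The treated animals lay close together, and 2 of the 5 control animals lay within their range. Within slides holding both treatments the centred PPIA difference was 0.18, 0.18 and 0.50. After 14 days of storage, 0 of 11 probes were called between treated and control animals by limma (0 at an unadjusted p under 0.05, with 1613 over all probes and 0.0713% of all probes called). The lowest adjusted p was 0.512, for the YWHAZ probe A_73_115814, whose change was -0.70 ± 0.34. For both days, the sizes of these standard errors set what could be seen. In simulated arrays of the day 0 design, a change of 1 on the log2 scale was recovered for 26% of changed probes and a change of 2 for 81%. A change of 0.5 was recovered for 0%, and the widest day 0 change of the 11 probes was -0.45 (GUSB). The 0 calls at day 0 therefore cannot decide whether changes of that size were present. The simulation used normal noise with 1 SD per probe over the 4 groups and changed few probes. The day 14 comparison was not simulated.

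**Figure D1:**
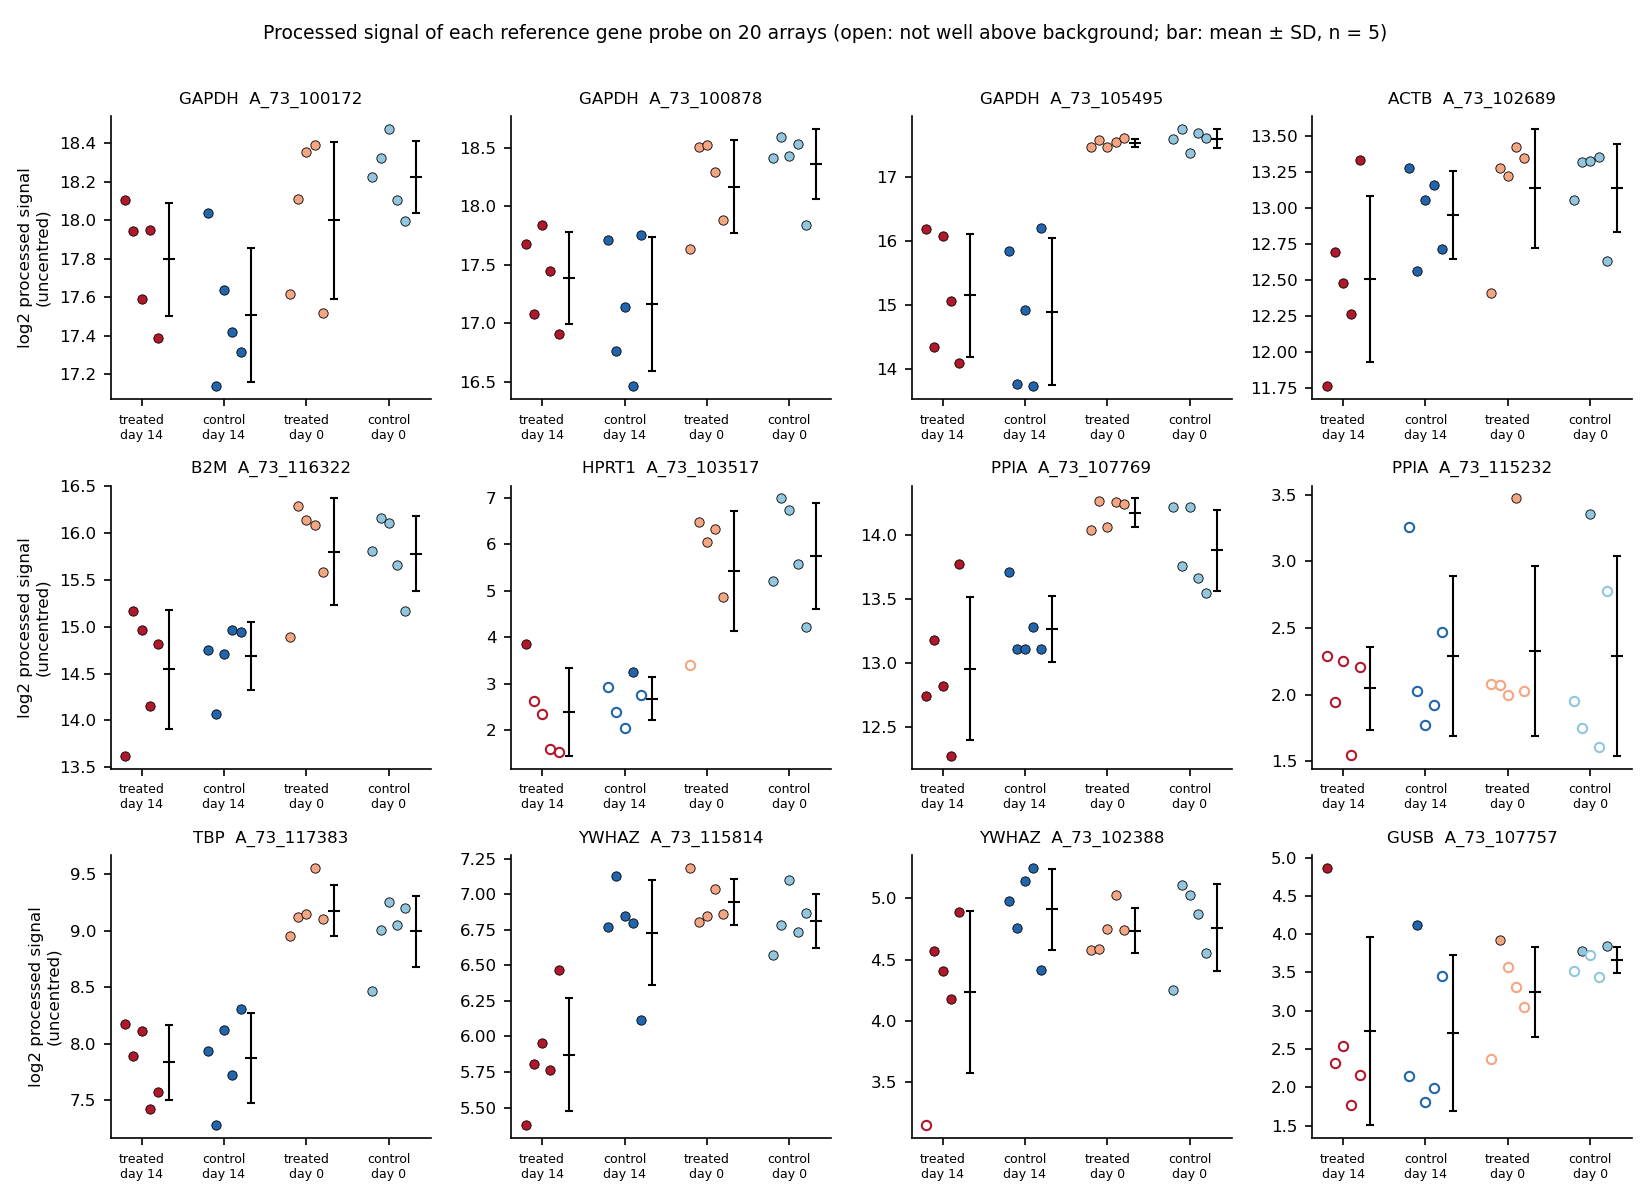
Uncentred log2 processed signal (vertical axes, each with its own range) of the 12 reference gene probes on 20 arrays, by group along the horizontal axis. Points are arrays, open where no spot of the probe was well above background, and bars are the mean ± SD (n = 5). The treated and control points of one day overlap for each of the 11 tested probes, and in the GAPDH A_73_105495 and TBP panels every day 14 point lies below every day 0 point.

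Storage moved several of them, and the direction depended on what the signal was measured against. Relative to the 75th percentile, 3 of 11 probes rose and 2 fell in all animals, while of all tested probes 54.6% were called, 31.6% higher and 23.1% lower. In control animals 3 rose and 2 fell (39.2% of all tested probes were called, 21.8% higher and 17.3% lower), and in treated animals 1 rose and 2 fell (29.7% were called, 18.2% higher and 11.6% lower). The 5 of 11 called in all animals are thus no more than the share over the whole array. Their median change in all animals was 0.12, beside 0.11 over all tested probes. On uncentred signal none of the 11 rose and 8 fell in all animals (74.5% of all tested probes were called, and 71.5% fell), and the median of all tested probes was -0.93. In control animals 7 fell and none rose on that scale (56.9% of all were called, and 54.9% fell), and in treated animals 7 fell and none rose (68% were called, and 66% fell). Centred on the spike-in controls, an alternative chosen after seeing the data, 6 fell and none rose in all animals (64.8% of all called, 689 higher and 9311 lower).

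With slide as a block, 0 of 11 probes were called in any of the storage comparisons by limma. Of all probes, 14.8% were called in all animals, 1.19% in control animals and 0% in treated animals. The 2 slides holding both days carry the comparison in all animals. Within treated animals only slide 5 held both days, with 1 array each (DE32). Within control animals only slide 6 did, with 2 arrays at day 14 and 1 at day 0. The 0 calls in those 2 comparisons rest on so few arrays that they cannot decide whether the probes changed. At an unadjusted p under 0.05 there were 4 of 11 in all, 4 in control and 2 in treated animals. Over all 15438 tested probes there were 4922, 4257 and 3042, so the members lay near the share of the whole array. Under that block the changes in all animals were 0.70 ± 0.24 for GAPDH A_73_100172 (adjusted p = 0.0637), 0.33 ± 0.27 for GAPDH A_73_100878, 0.22 ± 0.33 for B2M and 0.16 ± 0.34 for PPIA. They were -0.37 ± 0.18 for TBP, 0.16 ± 0.41 for YWHAZ A_73_115814 and -0.30 ± 0.45 for GUSB, and those of the other 4 probes are given with their genes. The 3 storage comparisons share arrays, so they are not independent of each other.

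**Figure D2:**
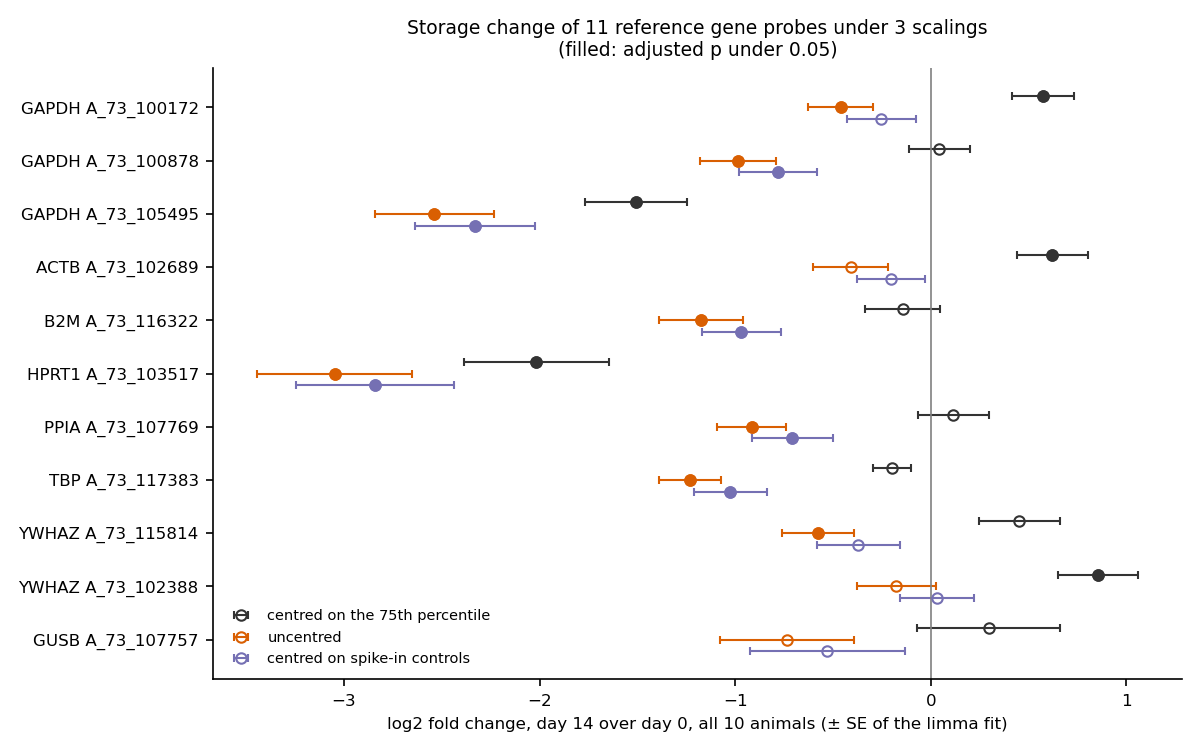
Log2 fold change of day 14 over day 0 in all 10 animals (horizontal axis, with the standard error of the limma fit) for each of the 11 tested probes (vertical axis), centred on the 75th percentile, uncentred, or centred on spike-in controls. Filled points passed an adjusted p under 0.05. Only GAPDH A_73_105495 and HPRT1 lie clearly left of 0 under all 3 scalings, and ACTB, YWHAZ and GAPDH A_73_100172 lie right of 0 under the centring on the 75th percentile.

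GAPDH converts glyceraldehyde 3-phosphate in glycolysis, and its 3 probes did not move together after storage. A_73_105495 fell 2.84-fold relative to the 75th percentile in all animals (log2 fold change -1.51 ± 0.26, adjusted p = 7.78e-05) and by 2.54 ± 0.30 on the uncentred log2 scale. A_73_100878, which the array assigns to the same GAPDH transcript, had a centred change of 0.04 ± 0.16 (adjusted p = 0.82) and an uncentred fall of 0.99 ± 0.19. A_73_100172 rose 1.49-fold on the centred scale (0.57 ± 0.16, adjusted p = 0.0047) and fell by 0.46 ± 0.17 on the uncentred scale (adjusted p = 0.0162). The centred rise was lost with quantile normalization (0.05, adjusted p = 0.766), median centring (0.26, adjusted p = 0.146) and normexp background correction (0.39, adjusted p = 0.0724). The probe has 2 spots, and 1 of them was left out as an outlier on 7 of 10 arrays at day 14, against 4 of 10 at day 0. On those 7 day 14 arrays the centred value was 8.77 to 9.61, while on the 3 with both spots it was 8.25 to 8.87, within the 7.98 to 8.87 of the 6 day 0 arrays with both spots. With outlier spots kept, an alternative chosen after seeing the data, the change in all animals was 0.61 ± 0.34 and did not pass (adjusted p = 0.134). The array names the target of A_73_100172 as LOC616200, a separate protein-coding gene in RefSeq (ARS-UCD2.0), and only its description names GAPDH. Whether it reads GAPDH or a copy of it was not tested.

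The uncentred signal of A_73_105495 was 16.18, 14.35, 16.08, 15.06 and 14.09 at day 14 in treated animals DE27, DE29, DE30, DE31 and DE32, against 17.46, 17.57, 17.47, 17.54 and 17.60 at day 0. In control animals K3, K6, K8, K9 and K10 it was 15.85, 13.76, 14.92, 13.73 and 16.21 at day 14, against 17.58, 17.75, 17.37, 17.68 and 17.60 at day 0. The day 0 arrays were nearly level and the day 14 arrays were spread over more than 2 log2 units, all of them below every day 0 array. The fall was between 1.28 (DE27) and 3.51 (DE32) in treated animals, and in control animals between 1.39 (K10) and 3.98 (K6). No spot of any of the 12 probes was marked as saturated.

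A_73_100878 read 17.68, 17.08, 17.84, 17.45 and 16.91 at day 14 in treated animals DE27, DE29, DE30, DE31 and DE32, against 17.63, 18.51, 18.52, 18.29 and 17.88 at day 0. The control animals K3, K6, K8, K9 and K10 had 17.71, 16.77, 17.14, 16.46 and 17.76 at day 14, against 18.41, 18.59, 18.43, 18.54 and 17.84 at day 0. The days overlapped in treated animals, where DE27 did not fall, and did not overlap in control animals. The difference between A_73_105495 and A_73_100878, which no centring of the array can change, fell by 1.55 ± 0.55 between day 0 and day 14 (SD, n = 10), in 10 of 10 animals (two-sided exact permutation p = 0.00195, adjusted over 4 probe pairs 0.00391). Between A_73_105495 and A_73_100172 it fell by 2.08 ± 1.01, again in 10 of 10 (exact permutation p = 0.00195, 0.00391 after adjustment). Between A_73_100172 and A_73_100878 it rose by 0.53 ± 0.58, in 8 of 10 (exact permutation p = 0.0254, 0.0254 after adjustment). The loss of signal at A_73_105495 relative to its partner did not differ detectably between treated and control animals (exact permutation p = 0.817).

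**Figure D3:**
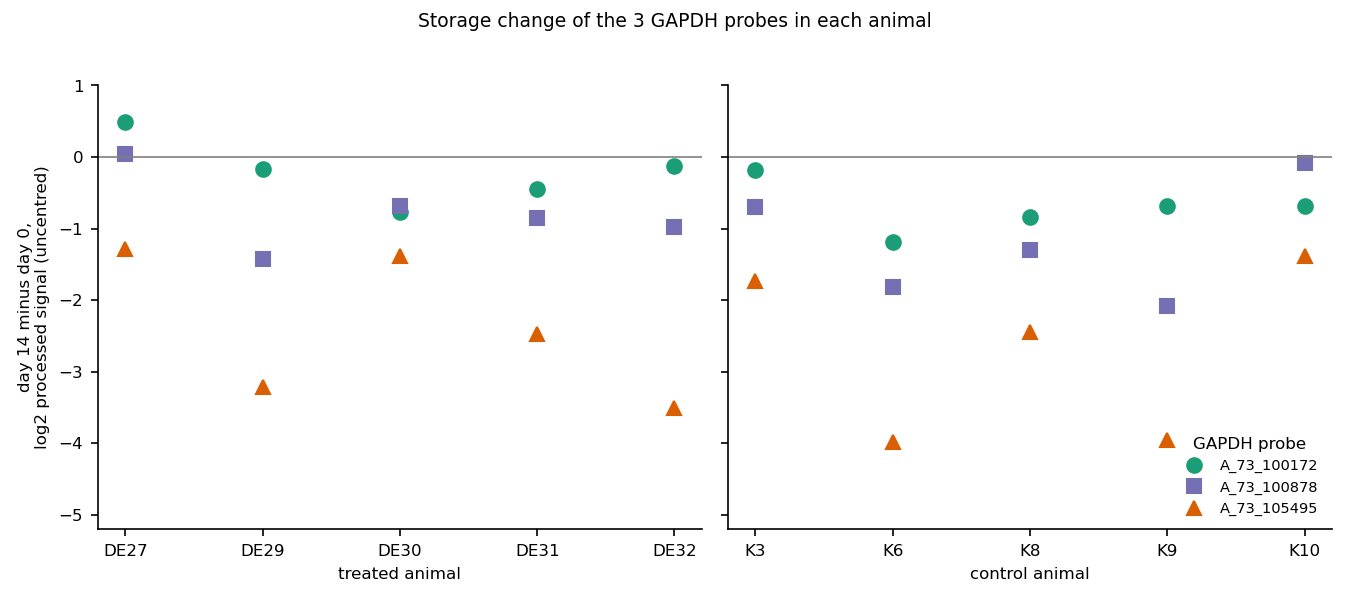
Day 14 minus day 0 of the uncentred log2 processed signal (vertical axis) of the 3 GAPDH probes in each treated animal (left) and each control animal (right). Each point is 1 animal and 1 probe. The A_73_105495 points lie lowest in all 10 animals, between -1.28 and -3.98.

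The centred fall of A_73_105495 passed in both treatments, at -1.25 ± 0.34 in treated animals (adjusted p = 0.0192) and -1.77 ± 0.36 in control animals (adjusted p = 0.00399). In treated animals it lost the threshold without DE29 (-1.07, adjusted p = 0.0887), DE31 (-1.33, adjusted p = 0.0589) or DE32 (-0.93, adjusted p = 0.0772). Within slides holding both days it was -1.70 on slide 5 and -1.52 on slide 6, and with slide as a block in all animals -1.48 ± 0.52 (adjusted p = 0.0682). A_73_100172 rose in treated animals (0.92 ± 0.22, adjusted p = 0.00999) and had 0.22 ± 0.19 in control animals (adjusted p = 0.37). Its difference in storage change between treatments was 0.70 ± 0.28 (limma adjusted p = 0.99998). The rise in treated animals was 1.20 ± 0.39 with outlier spots kept (adjusted p = 0.0371), and it did not pass with quantile normalization (0.20, adjusted p = 0.515) or median centring (0.59, adjusted p = 0.0586). Of the 12 glycolysis genes tested other than GAPDH, 1 rose and 4 fell after storage in all animals, with a median change of -0.18. Over all tested probes, 31.6% rose and 23.1% fell. ALDOA, which splits fructose bisphosphate, rose by 0.57 ± 0.13, while PGK1, the enzyme next to GAPDH in the pathway, fell by 1.52 ± 0.22 and PFKM, the muscle phosphofructokinase, fell by 1.45 ± 0.25.

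ACTB, the actin of the cytoplasmic cytoskeleton, rose relative to the 75th percentile and did not rise in uncentred signal. Its centred change was 0.62 ± 0.18 in all animals (1.54-fold, adjusted p = 0.00686), and it was above 0 in 10 of 10 animals. Uncentred, it was -0.41 ± 0.19 (adjusted p = 0.0588), and centred on the spike-in controls -0.20 ± 0.18 (adjusted p = 0.32). With median centring it was 0.31 (adjusted p = 0.127) and with normexp 0.38 (adjusted p = 0.113). The uncentred signal was 11.76, 12.69, 12.48, 12.27 and 13.34 at day 14 in treated animals DE27, DE29, DE30, DE31 and DE32, against 12.41, 13.28, 13.23, 13.43 and 13.35 at day 0. Control animals, in the order K3, K6, K8, K9 and K10, had 13.28, 12.56, 13.05, 13.16 and 12.71 at day 14, against 13.06, 13.32, 13.33, 13.36 and 12.63 at day 0. The days overlapped in both treatments on this scale. In control animals the centred rise was 0.75 ± 0.20 (adjusted p = 0.0121), and it lost the threshold without K8 (0.74, adjusted p = 0.0507) or K9 (0.71, adjusted p = 0.0557), with median centring (0.46, adjusted p = 0.0596) and with normexp (0.53, adjusted p = 0.0502). In treated animals it was 0.49 ± 0.30 (adjusted p = 0.24). Within slides it was 0.42 on slide 5 and 1.27 on slide 6, and with slide as a block 0.86 ± 0.35 (adjusted p = 0.108).

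Genes of the non-muscle actin cytoskeleton were called mostly in the same direction as ACTB on the centred scale. Of 24 tested, 10 rose and 2 fell in all animals, with a median of 0.38, beside 0.11 over all tested probes (31.6% higher and 23.1% lower). In treated animals 1 of the 24 rose and 0 fell (limma), beside 18.2% and 11.6% of all tested probes. In control animals 10 rose and 1 fell, beside 21.8% and 17.3%. For none of the 24 did the difference between treatments pass. MSN (moesin), which ties actin to the membrane, rose by 0.96 ± 0.17, and FLNA (filamin A), which crosslinks actin, by 1.22 ± 0.24. CAPZB, which caps actin filaments, fell by 0.42 ± 0.14, and ACTR3, of the Arp2/3 complex, by 0.28 ± 0.12. Among 4 muscle and smooth muscle actins, ACTA1 (0.92 ± 0.32) and ACTA2 (0.76 ± 0.31) rose. Transcripts of vessel cells were called higher too: 8 of 8 endothelial markers and 6 of 6 smooth muscle and pericyte markers in the fit of all animals together. In treated animals alone 3 of the 8 and 0 of the 6 rose (limma), beside 18.2% of all tested probes. In control animals alone 5 of the 8 and 5 of the 6 rose, beside 21.8%. The mean centred signal of the endothelial markers ranged from 3.64 to 4.78 in treated and 3.38 to 4.81 in control animals at day 14, against 3.48 to 3.60 in treated and 3.07 to 3.49 in control animals at day 0. That of the smooth muscle and pericyte markers ranged from 4.78 to 6.79 in treated and 5.37 to 7.46 in control animals at day 14, against 4.89 to 5.84 and 5.01 to 5.38 at day 0. Their part in the ACTB values was not tested.

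B2M pairs with the heavy chain of MHC class I molecules at the surface of nearly all nucleated cells. Its centred change was -0.14 ± 0.19 in all animals (adjusted p = 0.545), while with median centring it fell by 0.46 (adjusted p = 0.0428) and uncentred it fell by 1.17 ± 0.22 (adjusted p = 4.72e-05), in 10 of 10 animals. The centred signal averaged 6.00 ± 0.69 in treated and 5.98 ± 0.20 in control animals at day 14, against 6.13 ± 0.46 in treated and 6.14 ± 0.34 in control animals at day 0. These 4 means span 0.16, the narrowest span of the 8 genes, and no neighbours in their order differ beyond their spread. Treated animal DE27 was the lowest of its group at both days, at 4.94 at day 14, against 5.41 at day 0. Of 16 genes that build MHC class I complexes, 4 were higher and 4 lower after storage. Those shares are near those over all tested probes (31.6% higher and 23.1% lower). The immunoproteasome subunit PSMB8 (1.06 ± 0.17) and the peptide transporter TAP2 (0.74 ± 0.14) rose, and the chaperone TAPBP (-0.79 ± 0.12) and the related Fc receptor FCGRT (-0.96 ± 0.19) fell. At day 0, PSMB9 (1.27 ± 0.16, adjusted p = 0.0041) and PSMB8 (0.90 ± 0.14, adjusted p = 0.0131), both immunoproteasome subunits, were higher in treated than in control animals, while B2M had a difference of -0.01 ± 0.24.

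HPRT1 returns hypoxanthine and guanine to the nucleotide pool. The array names the target of its probe as LOC510369, only the description names HPRT1, and whether it reads HPRT1 was not tested. The probe was close to background. It was well above background on 1 of 5 treated and 1 of 5 control arrays at day 14, against 4 of 5 treated and 5 of 5 control arrays at day 0. Its uncentred signal was 3.85, 2.63, 2.35, 1.60 and 1.53 at day 14 in treated animals DE27, DE29, DE30, DE31 and DE32, against 3.41, 6.48, 6.05, 6.32 and 4.87 at day 0. In control animals K3, K6, K8, K9 and K10 it was 2.93, 2.40, 2.06, 3.25 and 2.76 at day 14, against 5.22, 6.98, 6.74, 5.57 and 4.21 at day 0. The days overlapped in treated animals through DE27, whose day 14 array was the higher one, and did not overlap in control animals. The centred log2 difference in all animals was -2.02 ± 0.37 (adjusted p = 0.000141), below 0 in 9 of 10 animals. With 8 of 10 day 14 arrays not well above background, this size is no exact fold change. It was -2.13 ± 0.44 in control animals (adjusted p = 0.0042) and -1.91 ± 0.56 in treated animals (adjusted p = 0.0252, and 0.0562 with the animal as a replicate block).

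In treated animals the HPRT1 call was lost without any one of DE29 (-1.74, adjusted p = 0.0841), DE30 (-1.71, 0.0957), DE31 (-1.59, 0.121) or DE32 (-1.80, 0.0844). With slide as a block the fall in all animals was 1.34 ± 0.45 (adjusted p = 0.0555), and it was -1.98 within slide 5 and -0.69 within slide 6. The direction turned with normexp background correction, which adds an offset to low signals, to 0.51 in all animals (adjusted p = 0.111). Of 17 other genes of purine salvage and nucleotide metabolism, 3 rose and 6 fell (31.6% and 23.1% over all tested probes). Their median was -0.22. ADA (adenosine deaminase) rose by 1.25 ± 0.23 and IMPDH1, of guanine nucleotide synthesis, by 0.80 ± 0.17, while ADK (adenosine kinase) fell by 1.47 ± 0.21 and PRPS1, which makes the ribose donor of nucleotide synthesis, by 0.76 ± 0.11.

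PPIA, a peptidyl-prolyl isomerase, was called on the uncentred scale and not on the centred one. The centred change of A_73_107769 was 0.12 ± 0.18 in all animals (adjusted p = 0.60), and its uncentred fall was 0.92 ± 0.18 (adjusted p = 8.00e-05), in 10 of 10 animals. Its uncentred signal was 12.74, 13.18, 12.82, 12.27 and 13.77 at day 14 in treated animals DE27, DE29, DE30, DE31 and DE32, against 14.03, 14.26, 14.06, 14.25 and 14.24 at day 0. The control animals K3, K6, K8, K9 and K10 had 13.70, 13.10, 13.11, 13.28 and 13.11 at day 14, against 14.22, 13.75, 14.21, 13.66 and 13.54 at day 0. The days did not overlap in treated animals, and overlapped in control animals only through K3. The centred group means stood in the order control day 14 (4.56 ± 0.38), treated day 0 (4.50 ± 0.19), treated day 14 (4.41 ± 0.58) and control day 0 (4.24 ± 0.39), and no neighbours in that order differed beyond their spread. The second probe, A_73_115232, was above background on 1 of 5 treated and 1 of 5 control arrays at day 0 and on none at day 14, and was not tested. Of 10 other cyclophilins and FKBP1A tested, 5 fell and none rose after storage (23.1% and 31.6% over all tested probes). Their median was -0.17. The mitochondrial cyclophilin PPIF fell by 1.74 ± 0.41 after storage and was higher in treated than in control animals at day 0 (1.60 ± 0.36, adjusted p = 0.0459). PPID, a chaperone partner of HSP90, fell by 1.49 ± 0.21.

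TBP, the TATA-binding protein, was the steadiest of the 8 by SD over the 20 centred arrays. By the span of the 4 centred group means it came after B2M and PPIA. Its centred signal was -0.50, -0.49, -0.70, -0.91 and -0.95 at day 14 in treated animals DE27, DE29, DE30, DE31 and DE32, against -0.53, -0.52, -0.66, -0.33 and -0.43 at day 0. Control animals, in the order K3, K6, K8, K9 and K10, had -0.98, -0.82, -0.68, -0.92 and -0.75 at day 14, against -0.89, -0.74, -0.62, -0.70 and -0.29 at day 0. All 20 arrays lay within 0.7 of each other and the days overlapped in both treatments. The centred change was -0.20 ± 0.10 in all animals (adjusted p = 0.0888), below 0 in 8 of 10 animals. On uncentred signal the same probe fell by 1.23 ± 0.16 (adjusted p = 5.95e-07), in 10 of 10 animals, and the day 14 arrays lay below all day 0 arrays. The call depended on scaling in smaller steps as well: centred on the array median the change was -0.51 (adjusted p = 0.000651), and in the authors' series table -0.25 (adjusted p = 0.0366). Of 25 other general transcription factor genes, 9 rose and 8 fell (31.6% and 23.1% over all tested probes), with a median of 0.04. TAF1 (0.94 ± 0.12) and the polymerase subunit POLR2B (0.89 ± 0.11) rose, and the TBP-associated factors TAF9 (-1.16 ± 0.12) and TAF7 (-1.03 ± 0.12) fell.

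YWHAZ binds phosphorylated proteins as a 14-3-3 dimer, and both its probes were higher after storage on the centred scale in control animals. The array names the target of A_73_102388 as LOC615966, only the description names YWHAZ, and whether it reads YWHAZ was not tested. A_73_102388 rose by 1.08 ± 0.24 in control animals (2.12-fold, adjusted p = 0.00585) and had 0.63 ± 0.31 in treated animals (adjusted p = 0.15). In all animals it rose by 0.86 ± 0.20 (adjusted p = 0.00149), a call lost with quantile normalization (0.47, adjusted p = 0.067), in the authors' series table (0.40, adjusted p = 0.129) and on spike-in controls (0.03, adjusted p = 0.895). A_73_115814 rose by 0.85 ± 0.30 in control animals (adjusted p = 0.0393, and 0.0652 with the animal as a replicate block) and had 0.05 ± 0.24 in treated animals (adjusted p = 0.88). That call was lost without any one of K3 (0.91, adjusted p = 0.0865), K6 (0.57, 0.109), K8 (0.87, 0.10) or K9 (0.78, 0.148), and with median centring (0.56, 0.115), quantile normalization (0.67, 0.0952) or the authors' series table (0.68, 0.0795). The uncentred changes of A_73_115814 were -1.07 ± 0.23 in treated animals (adjusted p = 0.00125) and -0.08 ± 0.24 in control animals (adjusted p = 0.79).

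The uncentred signal of A_73_115814 was 5.37, 5.80, 5.95, 5.76 and 6.47 at day 14 in treated animals DE27, DE29, DE30, DE31 and DE32, against 7.18, 6.81, 6.85, 7.04 and 6.86 at day 0. In control animals K3, K6, K8, K9 and K10 it was 6.77, 7.13, 6.85, 6.79 and 6.12 at day 14, against 6.57, 6.79, 7.10, 6.73 and 6.87 at day 0. The treated animals did not overlap between days and the control animals did. The difference in storage change between the treatments was -0.80 ± 0.39 on the centred scale and -0.99 ± 0.31 uncentred, and neither passed over all probes (limma adjusted p = 0.99998 and 0.999). No probe of the array passed that test: 0 of 11 members and 0% of 15438 probes were called by limma, with 1 member (GAPDH A_73_100172) and 541 probes at an unadjusted p under 0.05.

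Treated animal DE27 moved the YWHAZ values: without it, A_73_115814 rose by 0.62 in all animals (adjusted p = 0.0117, against 0.45 and 0.0708 with it), and A_73_102388 rose by 0.94 in treated animals (adjusted p = 0.00784). Without control animal K10, A_73_115814 rose by 0.54 in all animals (adjusted p = 0.039). The difference between A_73_102388 and A_73_115814 rose by 0.40 ± 0.43 after storage, in 9 of 10 (exact permutation p = 0.0195, 0.0254 after adjustment), with K6 the exception. Within slides A_73_102388 changed by 0.66 on slide 5 and 1.12 on slide 6, and with slide as a block by 0.79 ± 0.42 (adjusted p = 0.20). Of the other 6 genes of the 14-3-3 family, 1 fell and none rose in all animals (23.1% and 31.6% over all tested probes). YWHAG fell by 0.65 ± 0.16. YWHAG was also lower in treated than in control animals at day 0 (-0.64 ± 0.13, adjusted p = 0.0326).

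GUSB, which cleaves glucuronic acid from glycosaminoglycans in lysosomes, was well above background on 1 of 5 treated and 1 of 5 control arrays at day 14 and on 1 of 5 treated and 2 of 5 control arrays at day 0. The array names the target of this probe as LOC614157, only the description names GUSB, and whether it reads GUSB was not tested. Its uncentred signal was 4.87, 2.32, 2.54, 1.76 and 2.16 at day 14 in treated animals DE27, DE29, DE30, DE31 and DE32, against 2.37, 3.93, 3.57, 3.31 and 3.04 at day 0. The control animals K3, K6, K8, K9 and K10 had 2.15, 4.12, 1.81, 1.99 and 3.45 at day 14, against 3.51, 3.78, 3.73, 3.44 and 3.84 at day 0. The groups overlapped, and its spots on 1 array differed from each other with an SD of 0.85, as much as the arrays did from each other. The centred change of 0.30 ± 0.37 in all animals did not pass (adjusted p = 0.508), and with normexp background correction it was 1.24 (adjusted p = 0.000456). Of 24 other genes of lysosomal enzymes and membrane proteins, 5 rose and 8 fell (31.6% and 23.1% over all tested probes). Their median was -0.20. The hydrolases IDUA (0.74 ± 0.11) and LIPA (0.68 ± 0.10) rose, and LAMP2 (-1.03 ± 0.15), a lysosomal membrane protein, fell.

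The genes were then ranked by how little they varied, with 1 probe per gene, the one of highest mean signal (A_73_100172 for GAPDH and A_73_115814 for YWHAZ). Over the 20 centred arrays TBP had the lowest SD, 0.21, followed by PPIA (0.40), B2M (0.43), GAPDH (0.45), ACTB (0.51), YWHAZ (0.54), GUSB (0.85) and HPRT1 (1.34). Among all tested probes, whose median SD was 0.54, TBP stood at percentile 2.12, YWHAZ at 48.9 and HPRT1 at 98.2. The span of the 4 group means put B2M first (0.16), then PPIA (0.32) and TBP (0.34), and GAPDH only seventh (0.92). Within groups, TBP (0.18), GAPDH (0.30) and PPIA (0.41) varied least.

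A measure that does not depend on the centring of arrays gave PPIA the first place with this choice of probes. This is the geNorm M, the mean SD of a gene's log2 ratios to the other 7, for which lower is steadier. M was 0.68 for PPIA, 0.71 for TBP, 0.73 for B2M, 0.74 for ACTB, 0.76 for GAPDH, 0.78 for YWHAZ, 1.03 for GUSB and 1.48 for HPRT1. Removing the least steady gene step by step left ACTB and PPIA as the last pair, with an SD of their log2 ratio of 0.41. The log2 ratio of ACTB to PPIA was 0.51 higher at day 14 than at day 0 (not tested).

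The order of the 8 genes turned with the scale. On uncentred signal GAPDH came first (SD 0.40) and ACTB second (0.46), while TBP had rank 5 (0.70) and B2M rank 6 (0.76), against a median of 0.73 over all tested probes. Centred on the spike-in controls ACTB came first and TBP sixth. GUSB and HPRT1 held the last places, seventh and eighth, under the main scale, uncentred and centred on spike-in controls. TBP came first in 10 of 12 settings that kept all animals and did not swap the GAPDH probe, the exceptions being those 2 scales, and it also came first when any one of the 10 animals was left out.

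The place of GAPDH depended on its probe. With A_73_100878, an alternative chosen after seeing the data, its centred SD was 0.34 and it came second. With A_73_105495 its SD was 0.97, at percentile 90.0 of all tested probes, and it came seventh, with an M of 1.21, and TBP (M 0.76) then stood before PPIA (0.77). With A_73_100172 and outlier spots kept, its SD was 0.85 and its rank also 7. The second YWHAZ probe had an SD of 0.64, against 0.54 for the first.

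**Figure D4:**
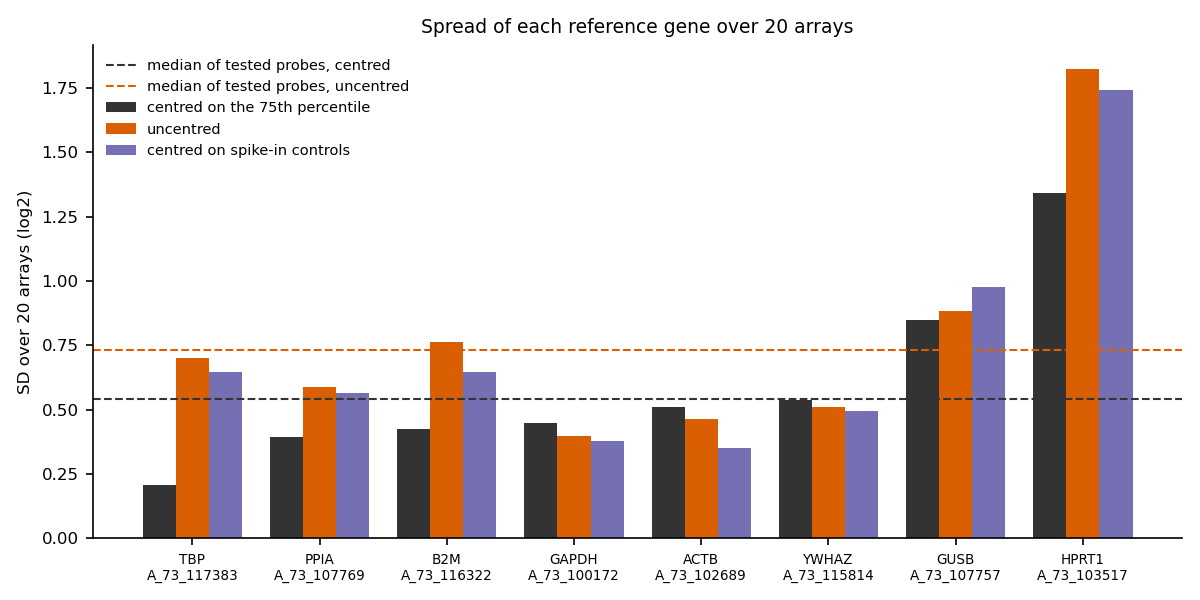
SD over 20 arrays of the log2 signal (vertical axis) of each reference gene, by the probe of highest mean signal, under 3 scalings. Dashed lines are the medians over all tested probes, 0.54 centred and 0.73 uncentred. TBP is lowest when centred on the 75th percentile and B2M lies above the dashed uncentred line, while HPRT1 is highest under all 3.

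Each gene was also used as the only normaliser, as in quantitative PCR, by subtracting its value from every probe of the array. The gene's own change is thereby subtracted too, so the balance of higher and lower probes restates the changes given above. In treated animals after storage, GAPDH (A_73_100172) gave 369 higher and 7463 lower probes of 15438, HPRT1 gave 11667 higher and 0 lower (limma), and TBP gave 3625 higher and 920 lower. In control animals GAPDH gave 1537 higher and 2589 lower, ACTB 494 higher and 6849 lower, YWHAZ 224 higher and 5455 lower, HPRT1 14093 higher and 1 lower, and TBP 4080 higher and 1430 lower. The 75th percentile gave 2802 higher and 1784 lower in treated animals and 3370 higher and 2675 lower in control animals. The share of called probes that were higher thus ran from 4.71% with GAPDH to 100% with HPRT1 in treated animals. GUSB gave 8 higher and 92 lower in treated and 78 higher and 22 lower in control animals.

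The GAPDH probe chosen for this purpose set that balance in the same way. In control animals A_73_100878 gave 2993 higher and 871 lower and A_73_105495 gave 13327 higher and 7 lower, against 1537 and 2589 with A_73_100172. In treated animals A_73_100878 gave 912 higher and 2703 lower and A_73_105495 gave 10003 higher and 14 lower. The mean of the 8 genes gave 2163 higher and 937 lower in treated and 2880 higher and 1322 lower in control animals. For treated over control at day 0 the normaliser moved both number and direction: GAPDH gave 331 higher and 43 lower, TBP 53 higher and 202 lower, PPIA 23 higher and 90 lower, and HPRT1 9 higher and 4 lower, beside 203 and 175 with the 75th percentile. At day 14 the numbers lay between 4 probes with GUSB and 68 with GAPDH.

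**Figure D5:**
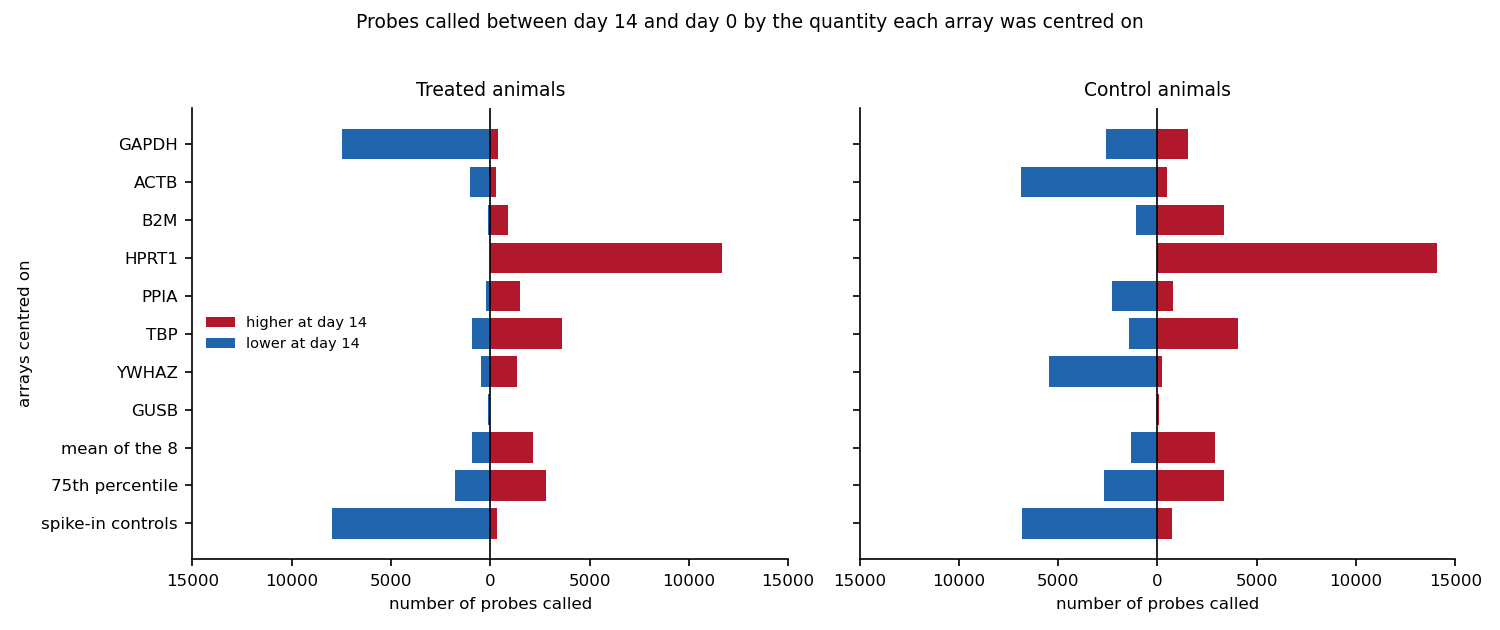
Number of probes called at an adjusted p under 0.05 between day 14 and day 0 (horizontal axis, of 15438 tested, higher to the right and lower to the left) in treated animals (left) and control animals (right), by the quantity that each array was centred on (vertical axis). HPRT1 gives 11667 and 14093 probes called higher and almost none lower, while ACTB and YWHAZ give mostly lower probes in control animals.

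Other transcripts in use as reference genes were read on the same arrays. Of 40 such genes, 38 were tested, and their median SD over the centred arrays was 0.46, beside 0.48 for the 8 members. CHMP2A (0.18), of the membrane-scission machinery, EIF3K (0.21), of translation initiation, and IPO8 (0.21), a nuclear import receptor, varied least, and PGK1 (0.91), GPI (0.85) and UBB (0.76) most. CHMP2A was the only one of the 38 with an SD below that of TBP. After storage 1 of the 38 rose and 21 fell in all animals (31.6% and 23.1% over all tested probes), with a median of -0.34. POLR2A, the largest subunit of RNA polymerase II, rose by 1.05 ± 0.21, and UBB (polyubiquitin) and C3H1orf43 fell by 1.37 ± 0.14 and 1.36 ± 0.12. At day 0, ALAS1 of haem synthesis (1.01 ± 0.15, adjusted p = 0.0105) and SDHA of the respiratory chain (0.58 ± 0.12, adjusted p = 0.0314) were higher in treated than in control animals.

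Among 8782 gene-named probes well above background on all arrays, SMUG1 (0.08), TRAPPC10 (0.11), GNAS (0.11), CNOT11 (0.12) and AP2A2 (0.12) had the lowest centred SD. On uncentred signal these 5 had SDs between 0.58 and 0.64. By Pearson correlation over the 20 centred arrays, the genes most like each member were REV1 (0.90) and MYO7A (0.89) for GAPDH A_73_100172, PCDH17 and PLK3 (both 0.92) for ACTB, AGPAT1 (0.82) and TRADD (0.80) for B2M, and EIF1B and OSTC (both 0.91) for HPRT1. For PPIA they were GNA12 (0.87) and ABRACL (0.84), for TBP ZNF689 (0.90) and ATP6V0C (0.89), for YWHAZ FYN (0.91) and EBF1 (0.90), and for GUSB AP4B1 (0.82) and TRMT10A (0.80). The arrays share the change of day and the centring, so these values describe the arrays and carry no test.

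Markers of the other cells in whole muscle shifted with storage as well, on arrays where 31.6% of all tested probes rose and 23.1% fell. Of the fibroblast markers 4 of 8 fell and none rose in all animals, with a mean centred signal of 3.85 to 6.15 in treated and 4.98 to 7.30 in control animals at day 14, against 5.60 to 6.94 and 5.74 to 6.84 at day 0. Of the lymphocyte markers 3 of 5 rose and of the macrophage and leucocyte markers 2 of 9, and of the adipocyte markers 2 of 6 fell. None of the nerve and Schwann cell markers passed in all animals by limma (5 tested). Of the erythroid markers, 2 of 3 rose, with a mean centred signal of 1.89 to 6.47 in treated and 3.94 to 6.39 in control animals at day 14, against 1.67 to 5.76 and 1.96 to 5.02 at day 0. At day 0 no marker of these lists passed between treated and control animals. The part of these cells in the values of the reference genes was not tested.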

How the data were processed

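Total RNA of 20 samples was labelled with 1 dye (Cy3) and hybridised to bovine oligonucleotide arrays, per the labels' protocols. Each deposited file holds 1 array's spots as extracted by Feature Extraction 9.5.1.1, per the file headers. The values used are processed signal intensities as deposited, background-subtracted and detrended, with 3 significant digits. The authors' series value table holds intensities whose normalization between arrays is not given in the sources used here, and was an alternative. R 2.11.1 is named in the submitters' processing notes.

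The 75th percentile of an array's log2 signals was subtracted from each of them. Spots marked as outliers (935) and control spots (1417) were left out, and spots of a probe were averaged. Testing required a spot well above background on 5 or more of the 20 arrays, and 15438 probes met this. Marks for outliers, background and saturation were used only for filtering. Depth has no counterpart on arrays, so the number of animals limits precision. Groups were compared with limma 3.58.1 (lmFit, eBayes; statmod 1.5.0) in R 4.3.3. P-values were adjusted over all tested probes (Benjamini-Hochberg), with a threshold of 0.05. Treatment comparisons used 10 arrays of 1 day, storage comparisons the 10 arrays of 1 treatment or all 20 with treatment as covariate, and the difference in storage change an interaction term. For single values, exact permutation tests were two-sided. In simulated arrays of the all-animal storage design, 80% of probes changed by 1 on the log2 scale were recovered. Few probes were changed there, while 54.6% were called in the measured arrays, so the share recovered need not carry over. Tables and figures used Python 3.11.15, pandas 2.3.3, numpy 2.4.6 and matplotlib 3.10.9.

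Treatment and day came from titles and characteristics. The description field, which contradicts the day, was not used, and a shortened animal name was read as DE31. Samples are separate animals, each measured at both days, so animal numbers pair the samples across days. The deviations of same-numbered samples correlated weakly or not at all, between -0.15 (DE27) and 0.28 (DE29), and below 0 in several animals. The pairing therefore rests on the labels and not on this check. Alternatives were no centring, median centring, quantile normalization, normexp (offset 50), the series table, filters on dim probes, slide, scan session and animal as blocks, each animal left out, and, chosen after seeing the data, centring on 7 spike-in probes, outlier spots kept and the other GAPDH probes.

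Genes were named through gene number, accession or description, matched to RefSeq (ARS-UCD2.0). Named genes were the members, at most 2 genes of smallest p per direction from each list, the 3 lowest and highest SDs of other reference genes, the 2 genes most like each member and the 5 lowest SDs. The members and gene lists were chosen with earlier results of these data known. Probe sequences were not used here. A gene that the naming rule selects is not reported here.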

Additional observations from a re-analysis of the deposited data

Results flagged for a closer look

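Among 48 sets of 5 arrays (12 probes in 4 groups), 2 held an array far from the other 4 on the centred log2 scale, where chance alone marks about 1 in 20 sets. The B2M probe A_73_116322 was 6.32 in control animal K9 at day 14, above the nearest control value of 5.97, a gap of 0.712 of the group's range. The GUSB probe A_73_107757 was -3.81 in treated animal DE27 at day 14, above the nearest treated value of -6.05, a gap of 0.81 of the range. DE27 was the only treated animal with a GUSB spot well above background at that day.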

How the results depend on the processing

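The treatment comparisons and the interaction called 0 of 11 probes without any one animal, as with all of them (limma). Storage results of single probes that changed sign, and passed the threshold in the main or the other setting, numbered 24, all under another scaling or background correction. Sign changes in which neither passed are not listed. Without centring, control animals gave -0.72 for GAPDH A_73_100172, -0.19 for ACTB, -0.62 for PPIA and -0.081 for YWHAZ A_73_115814, treated animals gave -0.20 for GAPDH A_73_100172, -0.78 for A_73_100878 and -1.07 for YWHAZ A_73_115814, and all animals gave -0.46 for GAPDH A_73_100172, -0.99 for A_73_100878, -0.18 for YWHAZ A_73_102388, -0.41 for ACTB, -0.92 for PPIA and -0.58 for YWHAZ A_73_115814. Centred on spike-in controls, treated animals gave -0.0701 for GAPDH A_73_100172 and -0.94 for YWHAZ A_73_115814, and all animals gave -0.25 for GAPDH A_73_100172, -0.78 for A_73_100878, -0.20 for ACTB and -0.71 for PPIA. These scalings differ from the main one by the lower 75th percentile of day 14 arrays. Quantile normalization gave -0.38 for GAPDH A_73_100878 in all animals. With normexp, HPRT1 was 0.71 in treated, 0.31 in control and 0.51 in all animals and GUSB 1.12 in control animals, and the cause was not tested.

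The number of members called after storage, 3 in treated, 5 in control and 5 in all animals, was 7 in treated and 8 in all animals without centring, 6 in treated animals on spike-in controls and 5 in treated animals with normexp. In the main setting 29.7%, 39.2% and 54.6% of all tested probes were called. Without centring it was 68% in treated and 74.5% in all animals. In treated animals it was 53.8% on spike-in controls and 57.1% with normexp. With only probes above background on all arrays, 3 members were called in control and 3 in all animals (44.6% and 57% of all such probes). That filter leaves out the probes of HPRT1 and GUSB and YWHAZ A_73_102388, so their calls could not count. With slide as a block 0 members were called in each comparison (0% of all tested probes in treated, 1.19% in control and 14.8% in all animals). Within treated or control animals alone, that block leaves only 1 slide holding both days. Leaving out 1 animal gave 1 to 4 members called in treated (1 without DE29, DE31 or DE32), 3 to 5 in control (3 without K8 or K9) and 5 to 6 in all animals. Of all tested probes, 15.8% to 36.9% were then called in treated, 20.8% to 43.1% in control and 48.2% to 58.7% in all animals. With the animal as a replicate block, storage calls numbered 2 in treated, 4 in control and 5 in all animals (25.9%, 35.6% and 53.8% of all tested probes). HPRT1 in treated (limma adjusted p = 0.0562) and YWHAZ A_73_115814 in control animals (adjusted p = 0.0652) lost the threshold, and no other member's call changed.

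The rank by SD moved without centring (GAPDH 1, ACTB 2, YWHAZ 3, PPIA 4, TBP 5, B2M 6) and on spike-in controls (ACTB 1, GAPDH 2, YWHAZ 3, PPIA 4, B2M 5, TBP 6). GAPDH came to rank 2 with median centring, quantile normalization, normexp, day 14 arrays alone, the mean of its probes or A_73_100878, and to rank 7 with A_73_105495 or with outlier spots kept. B2M came to rank 6 with median centring, 5 with normexp or the series table and 6 on day 0 arrays alone, where PPIA came to 5 and YWHAZ to 2. YWHAZ was at rank 4 in the series table, and at 3 to 6 when 1 animal was left out (3 without K6). Used as normaliser, GAPDH called 190 probes by A_73_100878 and 128 by A_73_105495 between treatments at day 0, and 13, 3 and 9 by A_73_100878, A_73_105495 and the mean of its probes at day 14. After storage it called 3615 in treated animals by A_73_100878, 13334 in control animals by A_73_105495, and by the mean of its probes 2777 in treated and 7147 in control animals. The mean of the YWHAZ probes called 250 at day 0 and 8 at day 14. HPRT1, GUSB and the second PPIA probe were limited by signal close to background. YWHAZ A_73_102388 was also dim, with a mean uncentred signal of 4.66, beside 4.06 for HPRT1.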
